A study of Mus musculus with 16 samples.

Results

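The Ifi200 family, also called the PYHIN or HIN-200 family, is a cluster of interferon-inducible genes on mouse chromosome 1. The members described here are the 10 genes of the count table with the symbols Aim2, Ifi206, Ifi213, Ifi209, Ifi208, Ifi207, Ifi204, Mndal, Ifi211 and Ifi203, of 55450 genes in all. The family was chosen by the values of Ifi209, whose levels in CD4+ TILs separated the Sirt2-/- libraries from the WT libraries. The comparison of genotypes in CD4+ TILs is therefore given as a description, with no test for any member, and the tests below are those of the other comparisons.

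Tumour-infiltrating T lymphocytes (TILs) were taken from subcutaneous tumours of B16F10, a melanoma line of C57BL/6 mice, grown in WT or Sirt2-/- hosts, and were sequenced as bulk total RNA with 4 libraries for each of 4 groups. The groups were CD4+ TILs of WT mice, CD4+ TILs of Sirt2-/- mice, CD8+ TILs of WT mice and CD8+ TILs of Sirt2-/- mice. The study asked what the loss of Sirt2, an NAD-dependent deacetylase, does to signalling in T cells inside tumours. Its methods name C57BL/6J as the WT strain and B6.129-Sirt2tm1.1Fwa/J as the Sirt2-/- strain, a germline deletion and so not specific to T cells, and give an age of 7 to 8 weeks. All hosts carried the same tumour and no drug treatment is named for these samples. The methods purify TILs on Percoll and CD3ε beads, which select T cells, and the labels separate them into CD4+ and CD8+. The labels do not state which libraries came from 1 mouse, so p-values measure the spread between libraries.

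Proteins of this family usually join an N-terminal pyrin domain, which binds other pyrin domains, to 1 or 2 HIN domains, which bind DNA. AIM2 is the best known: it senses double-stranded DNA in the cytosol and gathers the adaptor ASC (gene Pycard) and caspase-1 (gene Casp1) into an inflammasome. IFI204 is a DNA sensor that signals through STING (gene Tmem173), and is often likened to human IFI16. The MNDAL and IFI203 proteins are found in the nucleus. Interferons induce most members by way of interferon-stimulated response elements (ISREs) in their promoters.

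In GENCODE mouse release 21, built on GRCm38 as the count table is, the 10 genes lie between positions 173350879 and 173942672 of chromosome 1, a span of 591.8 kb. Aim2 (173350879 to 173466040), Ifi209 (173630917 to 173647928) and Ifi208 (173673675 to 173698395) are on the plus strand. The minus strand holds Ifi206 (173468485 to 173491041), Ifi213 (173566283 to 173599274), Ifi207 (173723427 to 173741747), Ifi204 (173747293 to 173766943), Mndal (173849126 to 173942491), Ifi211 (173896345 to 173913046) and Ifi203 (173920407 to 173942672). Mndal spans the whole of Ifi211 and shares 37 exonic bases of the same strand with Ifi203.

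The sequences before the starts of these genes are shown because they hold nearly the same short element. A promoter entry of RefSeq (GRCm38.p6) was found for 9 of 10 members, and Ifi204 was not matched. The 250 bases before each start were searched on both strands for the ISRE-type motif GAAANNGAAA, which was present in 7 members and in 2.98% of 32851 promoter entries of the mouse. Mndal and Ifi203 each had a further entry. A member was counted when any of its entries matched, whereas the share is per entry. The further entry of Ifi203 did not match, and that of Mndal matched with letters other than those shown. Each line gives the element in capitals with the 10 bases on either side, 5′ to 3′ on the strand of the gene. Ifi214, a neighbour that is no member, is shown for comparison with Ifi209.
Ifi206: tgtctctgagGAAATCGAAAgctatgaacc
Ifi213: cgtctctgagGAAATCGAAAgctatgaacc
Ifi208: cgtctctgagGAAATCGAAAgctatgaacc
Ifi209: aatctctgagTAAATCGAAAgagatgcact
Ifi214: agtctctgagGAAATCGAAAgcgatgcact
Ifi207: cctagccaggGAAATCGAAAattaagaaca
Mndal: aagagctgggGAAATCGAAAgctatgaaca
Ifi203: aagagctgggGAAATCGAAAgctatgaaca
Ifi211: caaagccaggGAAATTGAAAgctatgaacg

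On the minus strand, these windows lie at chr1:173491339-173491368 for Ifi206, chr1:173599326-173599355 for Ifi213, chr1:173536017-173536046 for Ifi214, chr1:173741831-173741860 for Ifi207, chr1:173880204-173880233 for Mndal, chr1:173942508-173942537 for Ifi203 and chr1:173913064-173913093 for Ifi211. On the plus strand, they lie at chr1:173673597-173673626 for Ifi208 and chr1:173630770-173630799 for Ifi209. The first base of the element stood between 35 and 79 bases before the RefSeq start. The element of Mndal lies in an annotated Mndal exon, and the other 8 elements shown lie in none. The exact letters GAAATCGAAA were present in 13 of 32851 entries (0.0396%), of which 6 belonged to members and 1 to Ifi214. With positions counted from 1 at the 5′ end of the element and the Ifi208 element as the reference, Ifi211 carried C6T and still matched the motif. Ifi209 carried G1T, so that its closest stretch did not match the motif. In Aim2 the closest stretch differed from the Ifi208 element at 4 positions. The motif TTCNNNGAA, a form of the interferon-gamma activated site that reads the same on both strands, was in the window of none (0) of the 9 members and in 7.02% of all entries. A match is a description of these letters, and binding of a factor was not measured.

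The members resemble each other, which limits how well reads can be told apart. Of all 100-base windows of a gene's annotated transcripts, which is the length of 1 read of a pair here, 56.9% recurred in the transcripts of another gene for Ifi211, 16.9% for Ifi209, 13.1% for Ifi206 and 10.7% for Ifi204. The shares were 6.38% for Mndal, 5.92% for Ifi208, 3.30% for Ifi213, 2.84% for Ifi203, 0.79% for Ifi207 and 0% for Aim2. All of the shared windows of Ifi209 were shared with Ifi214, whereas those of Ifi211 were shared mostly with Ifi205 and Ifi204. How the authors' counting treated reads that fit several genes is not given in the sources used here, so counts of Ifi211 in particular are uncertain.

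Total counts per library ranged from 28000949 to 62407851. In 3 libraries fewer than 15000 genes had a count: CD4+ Sirt2-/- replicate 4 (8169 genes), CD4+ WT replicate 1 (12587 genes) and CD8+ WT replicate 1 (14411 genes), against 17730 to 22138 genes in the others. Values that rest on these libraries are given with and without them. Sirt2 fell in Sirt2-/- CD8+ TILs, with a mean of 8.29 ± 1.74 CPM (SD, n = 4) against 38.4 ± 8.75 CPM in WT (log2 fold change −2.22, SE 0.21, edgeR adjusted p = 0.0066; the adjusted p was 0.057 without Sirt2-/- replicate 1 and 0.062 without Sirt2-/- replicate 4). In CD4+ TILs its mean was 8.26 ± 5.57 CPM in Sirt2-/- and 50.8 ± 16.7 CPM in WT libraries. Cd4 stood at 384 to 620.2 CPM in CD4+ and 0 to 4.93 CPM in CD8+ libraries, and the sum of Cd8a and Cd8b1 at 1461 to 2046 CPM in CD8+ and 14.03 to 74.9 CPM in CD4+ libraries, so that the cell type labels held in every library. CPM, the usual unit of counts relative to library size, were scaled here by TMM factors.

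All 10 members passed the filter on low counts over the 4 groups. Per kb of merged exon, Ifi209 had the highest level of the family in every group. Its mean was 91.6 ± 19.8 CPM per kb (SD, n = 4) in WT CD4+, 151.7 ± 7.11 in Sirt2-/- CD4+, 88.1 ± 11.6 in WT CD8+ and 127 ± 25.5 in Sirt2-/- CD8+ TILs. Mndal and Ifi206 held the next ranks, in WT CD4+ TILs with 76.5 ± 20.6 and 61.7 ± 29.6 CPM per kb, and in WT CD8+ TILs with 65.7 ± 6.86 and 83.1 ± 24.5 CPM per kb. These 3 genes overlapped in range in both WT groups. Within libraries, Ifi209 lay above Ifi206 in every WT CD4+ library and above Mndal in every WT CD8+ library. Its order against Mndal in WT CD4+ and against Ifi206 in WT CD8+ libraries varied. Ifi203 (42.1 ± 11.03 CPM per kb in WT CD4+ TILs), Ifi208 (29.1 ± 14.3), Ifi213 (24.0 ± 9.06) and Aim2 (18.7 ± 5.75) followed, again with overlapping ranges between neighbours. Ifi211 (3.19 ± 1.91 CPM per kb), Ifi204 (1.44 ± 0.967) and Ifi207 (0.126 ± 0.143) were the low members of this group, each below the lowest Aim2 value of the group. In Sirt2-/- CD4+ TILs the lowest Ifi209 library (145 CPM per kb) lay above the highest Ifi206 library (142 CPM per kb). In Sirt2-/- CD8+ TILs the ranges of these genes overlapped (91.2 to 148 and 81.5 to 144 CPM per kb), although Ifi209 lay above Ifi206 within every library.

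**Figure D1:**
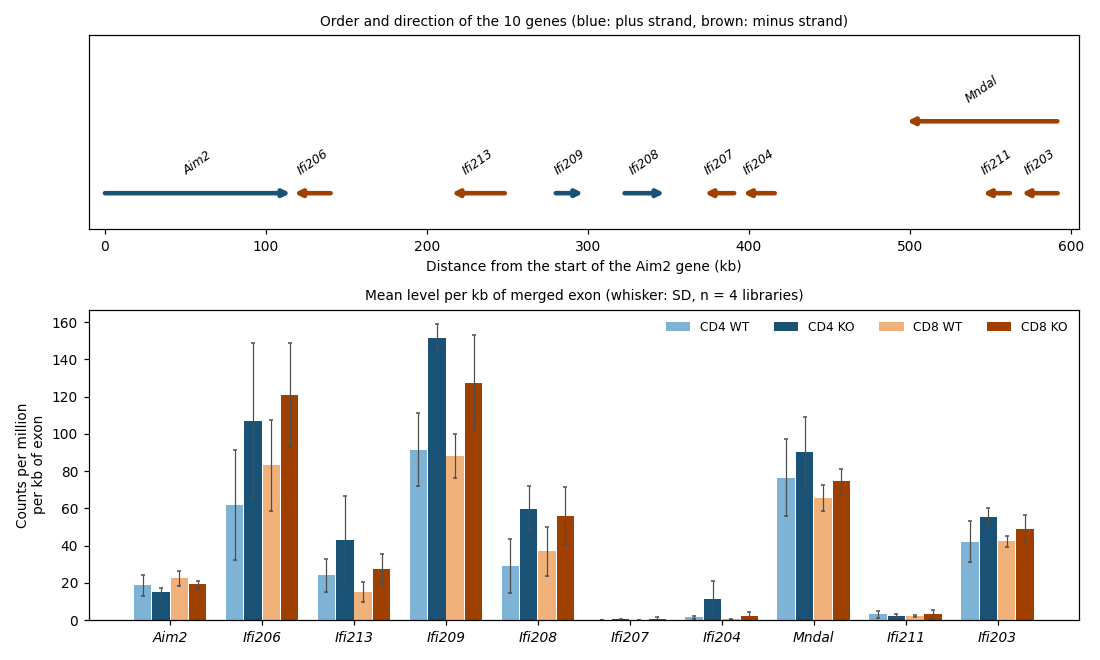
Top, order and direction of the 10 genes against the distance from the start of the Aim2 gene in kb, with Mndal drawn above the genes it spans. Bottom, mean CPM per kb of merged exon with SD whiskers (n = 4 libraries), by group (WT, wild type; KO, Sirt2-/-); the tallest bars are those of Ifi209, at 151.7 CPM per kb in Sirt2-/- CD4+ TILs.

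In CD4+ TILs, the comparison that chose the family, 8 of 10 members had a higher mean log2 level in Sirt2-/- than in WT libraries. Their median log2 fold change was 0.76, against −0.11 over all 15070 genes tested, of which 42.0% were higher. These values describe the choice and carry no test. Groups did not overlap for 3 members (Ifi209, Ifi208 and Ifi204), all higher in Sirt2-/-, where 1.31% of genes tested lay higher in this way. Without the 2 low CD4+ libraries, 6 members did not overlap (Ifi206, Ifi213, Ifi209, Ifi208, Ifi204 and Mndal), where 5.74% of genes lay higher in this way.

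Ifi209 stood at 543, 525, 513 and 571 CPM in Sirt2-/- CD4+ replicates 1 to 4 and at 242, 409, 345 and 303 CPM in the WT replicates. The 4 Sirt2-/- values lay close together, with an SD of 25.2 CPM against 70.2 CPM in WT, and every one exceeded every WT value (log2 fold change 0.73, SE 0.18). Ifi208, its neighbour on the plus strand, stood at 402, 318, 281 and 256 CPM against 43.6, 213, 188 and 169 CPM (1.04, SE 0.41). Ifi204 stood at 13.3, 28.7, 32.6 and 89.0 CPM in Sirt2-/- libraries against 0, 6.91, 7.22 and 6.43 CPM in WT. Its log2 fold change was 2.97 (SE 1.29), and 1.86 (SE 0.31) without the highest Sirt2-/- library and the WT library at 0, both of which are low libraries. A count of 0 in the latter allows up to 0.0998 CPM, a limit for counting error alone that takes no account of the few genes detected there (12587).

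Ifi206 stood at 435, 369, 359 and 143 CPM in Sirt2-/- CD4+ libraries and at 63.2, 279, 208 and 203 CPM in WT (log2 fold change 0.80, SE 0.46). Ifi213 stood at 514, 288, 246 and 127 CPM against 72.5, 202, 180.4 and 202 CPM (0.84, SE 0.44). In both genes the Sirt2-/- library inside the WT range was replicate 4, the library with 8169 genes. Ifi203 (413, 377, 354 and 345 CPM against 187, 365, 304 and 273 CPM) and Mndal (314, 294, 280.1 and 426 CPM against 383, 278, 232 and 217 CPM) overlapped, with log2 fold changes of 0.40 (SE 0.21) and 0.25 (SE 0.21). For Mndal the overlap came from WT replicate 1, a low library. Aim2 stood at 39.2, 56.0, 60.3 and 53.4 CPM in Sirt2-/- and at 92.6, 66.2, 57.5 and 45.0 CPM in WT (−0.31, SE 0.28), a difference near its error and in the other direction.

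The remaining low members were Ifi207, at 0.110 to 2.39 CPM in Sirt2-/- and 0 to 0.958 CPM in WT CD4+ libraries, and Ifi211, at 0 to 6.78 and 2.49 to 10.5 CPM. Their log2 fold changes of 1.76 and −0.68 had errors of 1.68 and 1.5, so that neither stood apart from the spread.

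**Figure D2:**
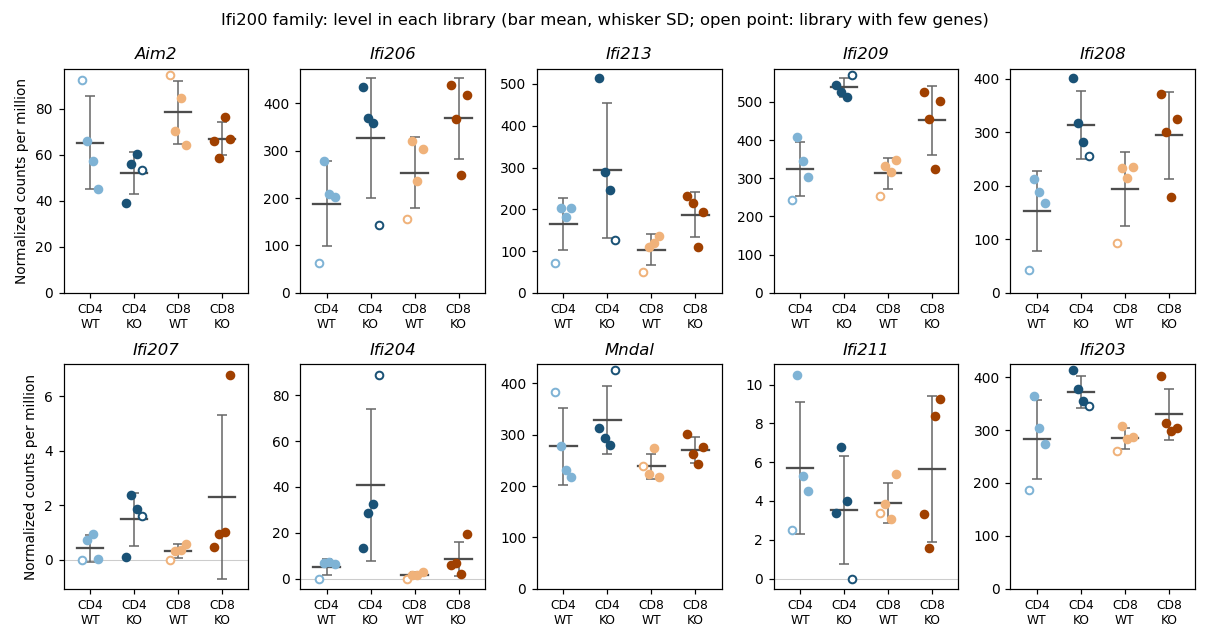
Level of each member in CPM (linear axis) in each of 16 libraries, with the mean as a bar and the SD as a whisker (n = 4; WT, wild type; KO, Sirt2-/-). Open points are the 3 libraries with fewer than 15000 genes; in Ifi209 all CD4+ Sirt2-/- points (513 to 571 CPM) lie above all CD4+ WT points (242 to 409 CPM).

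The rule that chose the family used no CD8+ values, although members and lists were chosen with earlier results of these data known. CD4+ and CD8+ libraries may also come from the same mice, which the labels do not state. The CD8+ values, and their p-values, may therefore not be independent of the CD4+ values that chose Ifi209. In CD8+ TILs, 9 of 10 members were higher in Sirt2-/- than in WT libraries by the sign of the fold change. Their median was 0.54, against 0.01 over 15302 genes, of which 51.9% were higher. However, 0 of 10 members passed the edgeR test at an adjusted p below 0.05. Only 1 gene in the table passed it (0.00654%), which was Sirt2. At an unadjusted p below 0.05 stood 5 members (Ifi209, Ifi213, Ifi204, Ifi207 and Ifi206), all higher in Sirt2-/-, where 3.78% of genes reached that level. The edgeR adjusted p of every member was 0.986. DESeq2 and limma-voom also called 0 of 10, where they called 0.183% and 0.0327% of genes. By these methods 6 and 3 members stood at an unadjusted p below 0.05, where 4.91% and 5.84% of genes did. No member had groups without overlap, where 1.74% of genes had every Sirt2-/- library above every WT library (2.68% without the low CD8+ library, when 0 members had).

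Ifi209 stood at 526, 456, 324 and 503 CPM in Sirt2-/- CD8+ replicates 1 to 4 and at 254, 332, 316 and 349 CPM in WT. Replicates 1, 2 and 4 exceeded every WT library, whereas replicate 3 lay inside the WT range. The log2 fold change was 0.53 (SE 0.15, unadjusted p = 0.0054 by edgeR), with a range of 0.45 to 0.67 when single libraries were left out. Its unadjusted p stayed below 0.05 in every alternative fit that was run.

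The same library was the lowest of its group for Ifi213, Ifi206 and Ifi208. Ifi213 stood at 232, 215, 109 and 193 CPM against 49.7, 110.1, 118 and 137 CPM in WT (0.85, SE 0.29, unadjusted p = 0.014). Ifi206 stood at 439, 368, 249 and 419 CPM against 156, 320.2, 236 and 304 CPM (0.54, SE 0.23, unadjusted p = 0.036). Ifi208 stood at 372, 302, 179.8 and 325 CPM against 92.5, 233, 215 and 236 CPM (0.60, SE 0.28, unadjusted p = 0.058). In all 3 genes replicates 1, 2 and 4 of Sirt2-/- mice exceeded every WT library. Without WT replicate 1, a low library, the unadjusted p was 0.028 for Ifi213, 0.085 for Ifi206 and 0.11 for Ifi208.

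Ifi204, the STING-linked sensor, was scarce in CD8+ TILs, at 6.10, 6.79, 1.88 and 19.3 CPM in Sirt2-/- libraries and 0, 1.53, 1.55 and 2.88 CPM in WT (log2 fold change 2.52, SE 0.96, unadjusted p = 0.024). Ifi207 stood at 0.488, 0.962, 1.01 and 6.78 CPM against 0, 0.317, 0.380 and 0.593 CPM (2.84, SE 1.13, unadjusted p = 0.028). Its size rested on Sirt2-/- replicate 4, without which the log2 fold change was 1.34. Without the same library the log2 fold change of Ifi204 was 1.72. Neither Ifi204 nor Ifi207 kept an unadjusted p below 0.05 without that library.

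Ifi203, a nuclear member, stood at 402, 314, 299 and 304 CPM in Sirt2-/- CD8+ libraries and 259.8, 308, 282 and 287 CPM in WT (0.21, SE 0.11). Mndal stood at 301, 262, 242 and 276 CPM against 238, 223, 273 and 218 CPM (0.18, SE 0.11). Aim2, the inflammasome sensor, was the member with a negative value, at 66.0, 58.8, 76.6 and 66.7 CPM against 94.7, 70.1, 84.7 and 64.2 CPM (−0.23, SE 0.14, unadjusted p = 0.13). Ifi211 stood at 1.58 to 9.24 CPM against 3.07 to 5.39 CPM (0.53, SE 0.51).

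**Figure D3:**
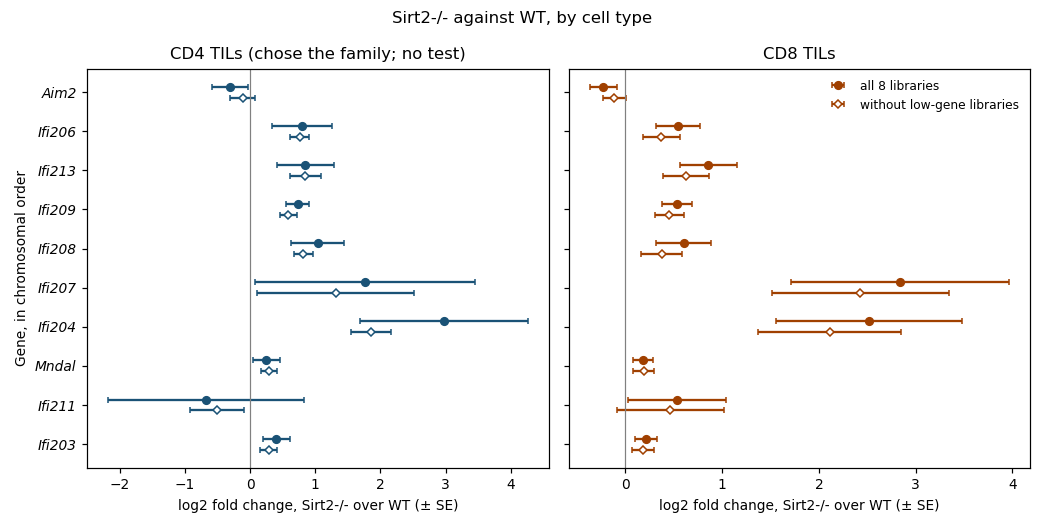
Log2 fold change of each member, Sirt2-/- over WT, with SE whiskers, in CD4+ TILs (left, the comparison that chose the family, not tested) and CD8+ TILs (right); the horizontal scales differ. Filled points use all 8 libraries and open diamonds leave out libraries with fewer than 15000 genes; Aim2 lies below 0 on both sides and Ifi209 at 0.73 and 0.53.

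Set side by side, the genotype differences in CD4+ and CD8+ TILs were 0.73 and 0.53 for Ifi209, 0.84 and 0.85 for Ifi213, 0.80 and 0.54 for Ifi206, and 1.04 and 0.60 for Ifi208, as log2 fold changes. Aim2 had −0.31 and −0.23. Whether the difference between genotypes depends on the cell type was not tested, because the CD4+ comparison chose the family. The summed level of the 10 members was 2271 ± 289 CPM (SD, n = 4) in Sirt2-/- and 1467 ± 307 CPM in WT CD4+ TILs, and 1986 ± 363 CPM in Sirt2-/- and 1471 ± 218 CPM in WT CD8+ TILs. In CD8+ TILs the sum ranged from 1489.7 to 2348 CPM in Sirt2-/- and from 1149 to 1603 CPM in WT libraries, which overlap. In bulk RNA, more cells that express a gene and more RNA per cell cannot be told apart.

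Between cell types of the same genotype, Ifi204 and Ifi213 had the most negative values of the family (CD8+ over CD4+) in both genotypes. These comparisons use the same libraries as those of the genotypes. In WT mice, 0 of 9 members passed the test (Ifi209, which chose the family, is given without a test), where 11.9% of 14892 genes were called; none stood at an unadjusted p below 0.05 either, where 24.3% of genes did. The median log2 fold change of CD8+ over CD4+ was −0.21 over the members and −0.02 over all genes. Ifi209 had −0.13 (SE 0.17) in WT and −0.26 (SE 0.15) in Sirt2-/- mice.

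The 2 members with the most negative values in WT were Ifi204 and Ifi213. Ifi213 stood at 49.7, 110.1, 118 and 137 CPM in CD8+ and 72.5, 202, 180.4 and 202 CPM in CD4+ libraries (log2 fold change −0.75, SE 0.35, edgeR adjusted p = 0.225). In each cell type replicate 1, a low library, was the lowest. Without both, the difference of Ifi213 was −0.69 (SE 0.11) and passed the test (edgeR adjusted p = 0.0013), as did that of Ifi204 (−1.79, SE 0.36, adjusted p = 0.0038, with 1.53 to 2.88 CPM in CD8+ and 6.43 to 7.22 CPM in CD4+ libraries). With all libraries Ifi204 had −1.88 (SE 1.48, adjusted p = 0.501). In that smaller set 2 of 9 members were called, where 28.0% of 15694 genes were. Leaving out CD4+ WT replicate 1 alone, Ifi213 was called (adjusted p = 0.0375 by edgeR), where 17.5% of genes were, and with a replicate block Ifi213 was also called, where 10.9% were.

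In Sirt2-/- mice, 0 of 9 members passed the test, where 2.24% of 15787 genes were called. At an unadjusted p below 0.05 stood 1 member, Ifi204, where 11.7% of genes did. Ifi204 had a log2 fold change of −2.27 (SE 0.83, edgeR adjusted p = 0.281), with CD8+ values of 1.88 to 19.3 CPM and CD4+ values of 13.3 to 89.0 CPM. Ifi213 had −0.67 (SE 0.41, adjusted p = 0.674). Aim2 was among the members with positive values, with 0.35 (SE 0.19) in Sirt2-/- and 0.20 (SE 0.21) in WT mice, neither called. Limma-voom with quality weights called 2 of 9 members in each genotype, Ifi213 and Ifi204, where it called 28.4% of genes in Sirt2-/- and 37.0% in WT mice.

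**Figure D4:**
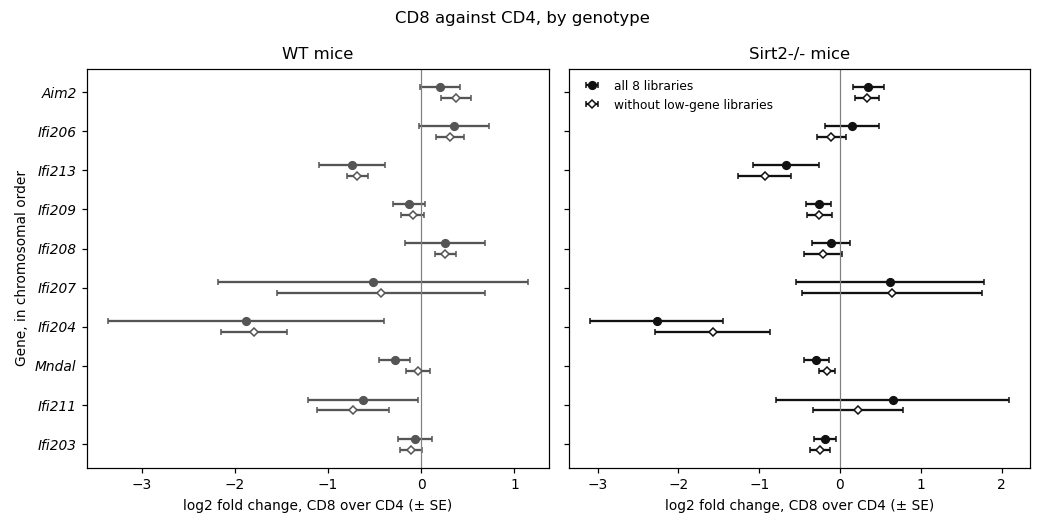
Log2 fold change of each member, CD8+ over CD4+ TILs, with SE whiskers, in WT (left) and Sirt2-/- mice (right); the horizontal scales differ. Filled points use all 8 libraries and open diamonds leave out libraries with fewer than 15000 genes; Ifi204 and Ifi213 lie to the left of 0 in both genotypes, with Ifi213 at −0.75 and −0.67.

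How the members varied together was described over the 13 libraries with at least 15000 genes, as Pearson correlations of log2 CPM; these libraries include the genotype groups that chose Ifi209. Ifi209 correlated with Ifi208 (r = 0.91), Ifi206 (0.88), Mndal (0.83), Ifi203 (0.82), Ifi204 (0.79) and Ifi213 (0.78). Ifi207 (0.43), Ifi211 (−0.08) and Aim2 (−0.34) did not follow it. Aim2 and Ifi213 ran in opposite directions (r = −0.80). Among the other genes of 17270 compared, the 5 closest to Ifi209 were Nampt, the rate-limiting enzyme of NAD salvage (r = 0.92, Spearman's rho 0.93), Samd9l, an antiviral factor (0.92, rho 0.93), Rtp4, an interferon-induced regulator of innate responses (0.92, rho 0.87), Parp12, an interferon-induced ADP-ribosyltransferase (0.91, rho 0.85), and Ms4a6b, a membrane protein of T cells (0.90, rho 0.86). Over all 16 libraries Rtp4 had 0.81 and Ms4a6b 0.63.

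Partners and regulators of the family were read from lists. Irf7, an interferon-induced transcription factor, stood at 166, 148, 68.8 and 156 CPM in Sirt2-/- CD8+ libraries and 20.4, 83.4, 59.6 and 104 CPM in WT (log2 fold change 1.01, SE 0.42, edgeR adjusted p = 0.986), and Sirt2-/- replicate 3 was again the lowest of its group. Over the 13 libraries the log2 of the summed family level had r = 0.79 with Irf7.

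Of 27 other interferon-stimulated genes, all 27 had a higher value in Sirt2-/- CD8+ TILs, with a median log2 fold change of 0.87. Of these 0 were called and 13 stood at an unadjusted p below 0.05 by edgeR. Over all 15302 genes tested, 51.9% were higher (median 0.01), 0.00654% were called and 3.78% stood at an unadjusted p below 0.05. Without the low library their median was 0.56. Of 16 interferon receptors and signalling genes 12 were higher (median 0.38, 0 called), with 7 higher and 1 lower at an unadjusted p below 0.05 by edgeR. In CD4+ TILs, as a description, 26 of 27 and 12 of 16 were higher, with medians of 0.54 and 0.30, where 42.0% of all genes were higher (median −0.11).

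Of 13 partners of the inflammasome, 10 were tested in CD8+ TILs, 8 were higher in Sirt2-/- by sign and 0 were called (median 0.34). At an unadjusted p below 0.05 by edgeR stood 1 of them, higher in Sirt2-/-, where 3.78% of all genes did. Pycard, the ASC adaptor that AIM2 recruits, had −0.08 (SE 0.16), and Casp1 had −0.34 (SE 0.17, adjusted p = 0.986 for both by edgeR). Of 12 other DNA-sensing genes, 11 were tested, 8 were higher and 0 were called (median 0.20), with 3 higher at an unadjusted p below 0.05 by edgeR. Tmem173, which encodes STING, had 0.50 (SE 0.18, edgeR adjusted p = 0.986).

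Genes of the lists were also compared between cell types, where 11.9% of all genes were called in WT and 2.24% in Sirt2-/- mice. In WT mice, 0 of 10 inflammasome partners, 5 of 11 other DNA-sensing genes, 6 of 16 receptor and signalling genes and 1 of 27 other interferon-stimulated genes were called. There, Tmem173 fell in CD8+ relative to CD4+ TILs (log2 fold change −1.08, edgeR adjusted p = 0.0051), as did Samhd1, which depletes deoxynucleotides (−1.15, adjusted p = 0.012), and Ikbke, a kinase near TBK1 (−1.08, adjusted p = 0.014). Cgas, the sensor that feeds STING, rose (1.70, adjusted p = 0.024), as did Rnaseh2c, a subunit of RNase H2 (0.94, adjusted p = 0.027), and Ifng, the ligand of type II interferon signalling (1.78, adjusted p = 0.033). The receptor and signalling genes called all fell, among them Ifngr1 (−1.56), Jak2 (−0.89), Ifngr2 (−1.71), Socs3 (−0.78) and Stat2 (−0.90), and of the interferon-stimulated genes Oas1a fell (−1.15, adjusted p = 0.039). The calls of Tmem173, Ifngr1, Jak2 and Ifngr2 held without any single library. Those of Ikbke (adjusted p = 0.069) and Socs3 (0.071) were lost without CD8+ replicate 2, that of Samhd1 without CD4+ replicate 4 (0.0503), and that of Stat2 without either of these (0.055 and 0.051). The call of Cgas was lost without CD4+ replicate 3 or CD8+ replicate 2, 3 or 4 (up to 0.078 by edgeR), and that of Rnaseh2c without CD4+ replicate 2 or 3 or CD8+ replicate 4 (up to 0.081). That of Ifng was lost without CD4+ replicate 3 or 4 or CD8+ replicate 2, 3 or 4 (up to 0.16), and that of Oas1a without CD4+ replicate 2, 3 or 4 or CD8+ replicate 1, 2 or 3 (up to 0.13). In Sirt2-/- mice, Ifngr1 (−1.39) and Jak2 (−1.16) fell and Irf8 rose (1.40), with edgeR adjusted p of 0.031, 0.0064 and 0.0080. The call of Ifngr1 was lost without CD4+ replicate 2 or 3 or CD8+ replicate 1, 3 or 4 (up to 0.12 by edgeR) and that of Irf8 without CD8+ replicate 3 or 4 (up to 0.052), while that of Jak2 held.

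Of 11 other gene symbols looked up for the locus, 7 were in the table, and Ifi202b had 0 counts in every library. Whether each symbol not found is a separate gene was not checked. Ifi214, which shares 16.9% of the windows of Ifi209, stood at 178, 172, 96.2 and 173 CPM in Sirt2-/- CD8+ libraries and 55.5, 97.6, 105 and 115 CPM in WT (0.73, SE 0.24, unadjusted p = 0.010, edgeR adjusted p = 0.986). Its values in CD4+ libraries were 132, 96.0, 96.4 and 47.5 CPM in Sirt2-/- and 28.4, 74.1, 70.3 and 64.1 CPM in WT.

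Macrophages also express many of these genes, so the markers of other cells were read beside the family. The summed level of 15 macrophage and monocyte genes ranged from 22.7 to 149.3 CPM in Sirt2-/- and 21.3 to 25.1 CPM in WT CD4+ libraries, and from 33.7 to 73.4 CPM in Sirt2-/- and 26.9 to 42.6 CPM in WT CD8+ libraries. The genotypes overlapped in both cell types, with the highest sums in Sirt2-/- libraries. In CD8+ TILs the overlap came from WT replicate 1, a low library at 42.6 CPM with 11 of 15 genes at 0. Cx3cr1 alone gave 27.5 CPM of that sum. The other WT CD8+ libraries stood at 26.9 to 29.9 CPM, below every Sirt2-/- CD8+ library. The part of these genes in the differences of the family was not tested. CD4+ Sirt2-/- replicate 4, a low library with 8169 genes, had the highest Ifi204 level (89.0 CPM). There, 12 of 15 of these genes were at 0, Csf1r and Adgre1 among them. Apoe alone gave 138 CPM of the sum, and Lyz2 stood at 11.6 CPM, its highest level in any library. In CD4+ Sirt2-/- replicate 1, which had the highest family sum (2677 CPM), the list stood at 22.7 CPM, inside the WT range. Over CD4+ Sirt2-/- replicates 1 to 3 the list stood at 22.7, 39.2 and 61.7 CPM, and Ifi204 at 13.3, 28.7 and 32.6 CPM. CD8+ Sirt2-/- replicate 4 had the highest list sum (73.4 CPM), Ifi204 (19.3 CPM) and Ifi207 (6.78 CPM) of the CD8+ libraries. CD8+ Sirt2-/- replicate 3, at 61.1 CPM, had the lowest Ifi204 level of its group (1.88 CPM). Summed dendritic cell genes were lower in Sirt2-/- (6.38 to 9.56 CPM) than in WT (10.9 to 13.9 CPM) CD4+ libraries, with 3 to 5 of 6 genes at 0. Summed stromal genes reached 55.8 CPM in Sirt2-/- and 11.1 CPM in WT CD4+ libraries, and 52.7 and 3.46 CPM in CD8+ libraries. Summed melanoma genes reached 81.5 and 98.4 CPM in CD4+ libraries and 15.7 and 11.4 CPM in CD8+ libraries, in the same order. The part of these lists was not tested either. The sums of B cell genes stayed at or below 12.5 CPM and those of NK cell genes at or below 13.7 CPM in every library.

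**Figure D5:**
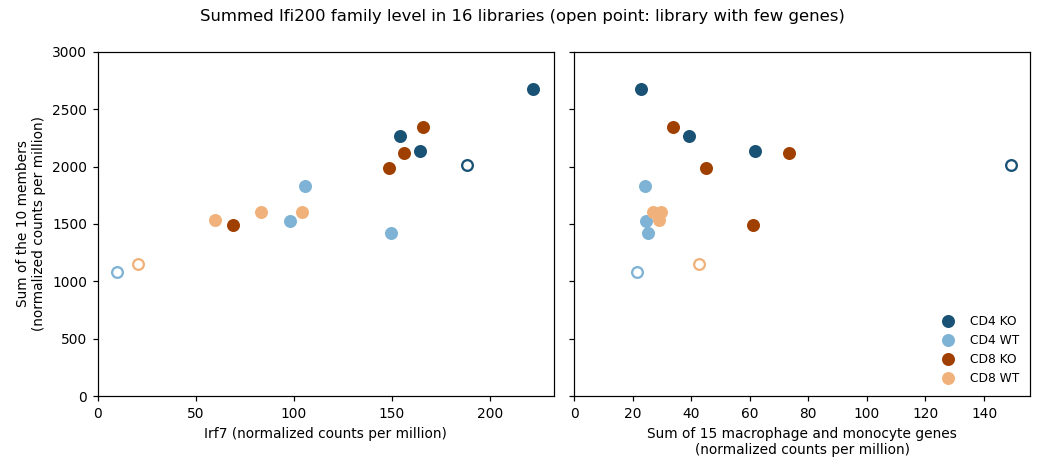
Summed level of the 10 members in CPM (vertical axis) in each of 16 libraries against Irf7 (left) and against the sum of 15 macrophage and monocyte genes (right), both in CPM (WT, wild type; KO, Sirt2-/-). Open points are the 3 libraries with fewer than 15000 genes. The CD4+ Sirt2-/- library with the highest family sum, 2677 CPM, has 22.7 CPM of macrophage genes. The CD8+ library with the highest macrophage sum, 73.4 CPM, is Sirt2-/- and has a family sum of 2122 CPM.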

How the data were processed

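Libraries of CD4+ and CD8+ TILs came from a stranded low-input total RNA kit and 100-base read pairs, per the labels. The authors deposited raw counts for each gene, as integers, under GENCODE identifiers of GRCm38. The submitters' processing notes name STAR, HTSeq and mm10, while their settings, including strand, are not given in the sources used here. Groups were taken from the labelled genotype and cell type, and 0 columns were unmapped. For each comparison the 8 libraries concerned were scaled by TMM and passed through filterByExpr, then the quasi-likelihood method of edgeR 4.0.16 (robust, two-sided) under R 4.3.3 gave p-values, which were adjusted by Benjamini-Hochberg over every gene tested and called under 0.05. A prior count of 2 entered log2 CPM. Totals of 28000949 to 62407851 counts set the precision, and a gene without a read was given a limit of 3 counts; because molecules were not tagged, that limit holds for counting error alone. Fits were tested on simulated data.

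Members and lists were chosen with earlier results of these data known. The rule names the 10 members, Sirt2, Irf7, Pycard, Casp1, Tmem173, up to 5 called genes per list and comparison, and the 5 genes most correlated with Ifi209, and 1 gene of the rule is not reported here; Ifi214, Ifi202b and the marker genes named beside a result were singled out after their values were seen. The alternatives comprised DESeq2 1.42.0, its size factors within edgeR, limma-voom weighted by sample quality (limma 3.58.1), omission of the filter, 1 model for all 16 libraries, a replicate block, omission of libraries under 15000 genes, and omission of each library in turn. Counts at an unadjusted p, and counts without overlap when low libraries are omitted, were added after the data were seen.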

Additional observations from a re-analysis of the deposited data

Results flagged for a closer look

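In 6 of 44 groups of 4 libraries looked at (the members and their sum), 1 library stood far from the other 3 by Dixon's ratio at the 95% level, where chance alone gives about 2.2. Of these, 4 concern replicate 1 of a WT group, which are low libraries: Ifi213 was 72.5 CPM in CD4+ WT replicate 1 against 180.4 to 202 CPM in the others, Ifi204 was 0 CPM there against 6.43 to 7.22 CPM, Ifi208 was 92.5 CPM in CD8+ WT replicate 1 against 215 to 236 CPM, and the family sum was 1149 CPM there against 1530.3 to 1603 CPM. Ifi207 reached 6.78 CPM in CD8+ Sirt2-/- replicate 4 against 0.488 to 1.01 CPM. Ifi203 reached 402 CPM in CD8+ Sirt2-/- replicate 1 against 299 to 314 CPM.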

How the results depend on the processing

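In CD4+ TILs, 150 of 150 alternative values differed from the main value by less than the SD of log2 CPM pooled over both genotypes. That limit is wide for Ifi204, Ifi207 and Ifi211, which each had a CD4+ library at 0. For Ifi204 the SD of log2 CPM was 1.13 in Sirt2-/- and 3.59 in WT CD4+ libraries. Its change from 2.97 to 1.86 without the low libraries was therefore within the limit. The direction of all 10 members there held without any single library and without the low libraries. In CD8+ TILs all 10 members kept their direction in 150 of 150 alternative values, and 0 of 10 members were called under any alternative run. Members at an unadjusted p below 0.05 there numbered 5 of 10 (3.78% of all genes), but 3 with limma-voom (5.84% of genes), 2 without the filter (5.63%), 1 with all 16 libraries in 1 model (1.28%), and 2 to 7 when single libraries were left out (2.58% to 4.97%), the fewest without CD8+ Sirt2-/- replicate 4 and the most without CD8+ WT replicate 4. The genes called there numbered 1, but 28 with DESeq2, 5 with limma-voom, 5 without the filter, 4 with the replicate block, 7 without low libraries and 0 to 7 when single libraries were left out. Groups without overlap in CD4+ TILs rose from 3 to 6 members without low libraries.

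Between cell types of WT mice, 2 members were called with limma-voom, 1 (Ifi213) with the replicate block, 2 without low libraries and 0 to 1 when single libraries were left out, the 1 being without CD4+ WT replicate 1. At an unadjusted p below 0.05 stood 1 of 9 with DESeq2 (27.2% of all genes), 3 with limma-voom (45.4%), 1 with the replicate block (25.0%), 4 without low libraries (37.9%) and 0 to 3 with single libraries left out (19.3% to 30.0%). Genes called numbered 1765, against 5504 with limma-voom, 811 with all 16 libraries, 4394 without low libraries and 1022 to 2767 with single libraries left out. In Sirt2-/- mice 2 members were called with limma-voom; at an unadjusted p below 0.05 stood 2 of 9 with limma-voom (39.4% of all genes), 0 with all 16 libraries (14.8%), 2 without low libraries (35.6%) and 0 to 2 with single libraries left out (8.30% to 35.6%). Genes called numbered 354, against 1340 with DESeq2, 4481 with limma-voom, 781 with all 16 libraries, 108 with the replicate block, 4250 without low libraries and 111 to 4250 with single libraries left out, the highest being without CD4+ Sirt2-/- replicate 4.

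Of 150 alternative values in each cell type comparison, 5 turned direction in WT and 7 in Sirt2-/- mice, all of members whose values were near their error. Values of Ifi209 were judged by their distance from the main value alone, so a turn of that gene would not be counted here. In WT, Ifi203 turned to 0.016 without the filter, 0.011 with all 16 libraries, 0.083 without CD4+ WT replicate 2 and 0.027 without CD8+ WT replicate 1, and Ifi207 to 0.24 without CD4+ WT replicate 3. In Sirt2-/- mice, Ifi206 turned to −0.051 with limma-voom and −0.11 without CD4+ replicate 4, the low library, Ifi208 to 0.022 without CD4+ replicate 1 and 0.066 without CD8+ replicate 3, Ifi207 to −0.86 without CD8+ replicate 4, and Ifi211 to −0.096 with limma-voom. Over fits without single libraries the range was −0.15 to 0.083 for Ifi203 and −0.98 to 0.24 for Ifi207 in WT, and −0.11 to 0.32 for Ifi206, −0.24 to 0.066 for Ifi208 and −0.86 to 0.96 for Ifi207 in Sirt2-/- mice. The cause was not tested.

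Replicate numbers pair no samples by the labels. Correlations between same-numbered libraries ran from −0.072 to 0.077 and from −0.056 to 0.031 between genotypes in CD4+ and CD8+ TILs, and from 0.067 to 0.12 and from −0.014 to 0.13 between cell types in WT and Sirt2-/- mice. In WT mice 8 of 8 libraries were closest to their own number in the other cell type, and in Sirt2-/- mice 3 of 8, which is a hint from the data and not from the design. The replicate block changed no call of a member other than that of Ifi213. In CD4+ TILs and between cell types, the differences of Ifi207 and Ifi211 were within 2 SE in the fits with all 8 libraries.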
